A study of Rattus norvegicus with 93 samples.

Results

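The genes described are regulators that switch small GTPases and heterotrimeric G proteins on or off: every probe set with 1 annotated symbol that begins with Arhgap, Arhgef, Rgs, Tbc1d or Rasa followed by a number, with 1 probe set per gene, the one of highest mean signal over all arrays. The rule gave 59 members of 7810 genes with 1 symbol, chosen from 67 probe sets. They are 24 Arhgap, 6 Arhgef, 11 Rgs, 14 Tbc1d and 4 Rasa genes. The rule goes by name and uses the mean signal only to pick a probe set, but it was set with earlier results of these data known.

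Small GTPases such as RhoA, Rac, Cdc42, Rab and Ras proteins are active while they hold GTP and idle while they hold GDP. Guanine nucleotide exchange factors (among them the Arhgef products) load GTP, and GTPase-activating proteins hasten its hydrolysis: the Arhgap products act on RhoA, Rac or Cdc42, most TBC domain proteins on Rab proteins, and the Rasa products on Ras and its relatives. RGS proteins do the same for the alpha subunits of heterotrimeric G proteins and so shorten the signal of chemokine receptors. In bone marrow these switches set the shape, adhesion, migration and division of blood cells, and the contraction of the ring that parts daughter cells.

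Bone marrow was flushed from the left femurs of 93 male Sprague-Dawley rats, 8 weeks of age, and measured on Affymetrix rat arrays, 1 array per rat. Each rat had a pair of intravenous infusions, and marrow was taken 1, 6 or 24 h after the second. The 6 treatments were topotecan/D5W and D5W/topotecan (topotecan, a topoisomerase I inhibitor, at 4.7 mg/kg, first or second), oxaliplatin/NaCl and NaCl/oxaliplatin (oxaliplatin, a platinum compound that binds DNA, at 15 mg/kg, first or second), and topotecan/oxaliplatin and oxaliplatin/topotecan, which gave both drugs at these doses in either order. The vehicles were saline (NaCl) for topotecan and dextrose in water (D5W) for oxaliplatin, so that NaCl/oxaliplatin, topotecan/D5W and topotecan/oxaliplatin had NaCl/D5W as their own-order vehicle, and oxaliplatin/NaCl, D5W/topotecan and oxaliplatin/topotecan had D5W/NaCl. Each group held 4 rats at each time, except 3 in topotecan/D5W at 24 h, 3 in oxaliplatin/NaCl at 6 h and 3 in D5W/NaCl at 24 h.

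Values are log2 signals after RMA, and a change is the treated mean minus the mean of the own-order vehicle at the same time. A probe set is called where the adjusted p of limma (Benjamini-Hochberg over all 12532 probe sets of a comparison) was under 0.01, with no minimum fold. Comparisons that share a vehicle group share its rats, so their values are set side by side and not counted as independent. The exact permutation test over rats could not go below 0.0286 with 4 against 4 or 4 against 3 rats.

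Whole marrow was measured, in which fewer cells of a type and less RNA per cell cannot be told apart. Of the marker lists of marrow cell types, the mitosis genes measured (15) were all called lower in every treatment at 24 h, the list's mean being 10.27 in topotecan/D5W, 9.94 in D5W/topotecan, 10.18 in oxaliplatin/NaCl, 10.08 in NaCl/oxaliplatin, 9.09 in topotecan/oxaliplatin and 9.03 in oxaliplatin/topotecan rats, against 11.28 in NaCl/D5W and 11.24 in D5W/NaCl rats. Markers that define marrow (erythroid, neutrophil) were bright in all groups. At 24 h, however, 9 of 10 erythroid genes were called lower in every treatment, with median changes of the list of -2.44 to -1.34. At 1 and 6 h the arrays of both combinations, of NaCl/oxaliplatin and of D5W/topotecan came from other columns of the laboratory's sample code than those of both vehicle groups, so that the code column and these treatments cannot be told apart. At 24 h the same held for D5W/topotecan and oxaliplatin/topotecan rats, whose columns held no D5W/NaCl rat, and NaCl/oxaliplatin rats shared a column with 1 NaCl/D5W rat only. Skeletal muscle genes were high on 3 arrays (rats 41 and 42 of oxaliplatin/NaCl at 24 h and rat 52 of topotecan/oxaliplatin at 6 h, with list means of 9.21, 9.17 and 10.11 against a median of 5.88 over all arrays). No named value lost its call without them.

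The promoters of 3 members are shown because these genes moved in opposite directions: Rgs1 was higher in 9 of 18 comparisons, while Arhgap19 and Rgs12 were lower in 16 of 18 comparisons. Each line gives the 250 bases before the gene's start in RefSeq on build GRCr8, 5′ to 3′ on the gene's strand, and capitals mark a searched word: chr13:58573188-58573437 (minus strand) for Rgs1, chr1:250566682-250566931 (minus strand) for Arhgap19 and chr14:80034860-80035109 (minus strand) for Rgs12.
Rgs1: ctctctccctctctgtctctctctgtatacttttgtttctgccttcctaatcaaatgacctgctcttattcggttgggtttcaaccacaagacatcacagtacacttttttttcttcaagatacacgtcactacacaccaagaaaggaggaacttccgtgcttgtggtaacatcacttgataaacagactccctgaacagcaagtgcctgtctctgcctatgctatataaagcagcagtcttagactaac
Arhgap19: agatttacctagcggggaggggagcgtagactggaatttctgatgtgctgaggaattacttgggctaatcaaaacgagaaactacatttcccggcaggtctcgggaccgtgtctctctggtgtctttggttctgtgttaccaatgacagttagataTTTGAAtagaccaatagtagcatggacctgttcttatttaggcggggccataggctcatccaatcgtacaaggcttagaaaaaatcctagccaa
Rgs12: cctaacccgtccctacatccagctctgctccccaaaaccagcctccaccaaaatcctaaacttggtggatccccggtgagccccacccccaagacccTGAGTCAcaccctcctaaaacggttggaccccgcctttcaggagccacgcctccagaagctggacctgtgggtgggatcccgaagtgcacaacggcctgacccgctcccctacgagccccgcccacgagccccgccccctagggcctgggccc
The words searched on both strands over the 300 bases around the start were TGACGTCA (the CRE), TGANTCA (AP-1) and TTTGAA or TTCGAA (the CHR element of cell cycle promoters). Of the 54 members with a promoter in the table, 0 held the CRE (1.83% of 33469 promoters), 4 held AP-1 (7.41%, against 7.33% of all promoters) and 4 held the CHR (7.41%, against 19.7%). The AP-1 matches were in Arhgap18, Arhgef37, Rgs12 and Tbc1d9b, and the CHR matches in Arhgap19, Arhgap21, Tbc1d8b and Tbc1d15. A match is a match of letters only.

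At 1 h after topotecan, more members were called lower than higher. In topotecan/D5W rats 4 members were called higher and 17 lower, where 9.18% and 26.0% of all probe sets were. In D5W/topotecan rats 2 were higher and 26 lower (7.67% and 19.5% of all probe sets). With both drugs, 5 were higher and 23 lower in topotecan/oxaliplatin rats (9.77% and 32.9% of all probe sets) and 3 higher and 26 lower in oxaliplatin/topotecan rats (7.21% and 27.6%). The share of members lower in topotecan/D5W rats was close to that of all probe sets. Oxaliplatin alone moved few members at this time. In oxaliplatin/NaCl rats 0 were higher and 2 lower (0.575% and 0.654% of all probe sets), namely Arhgap24 (2.00-fold lower) and Arhgap39 (-0.48), and in NaCl/oxaliplatin rats 0 were called in either direction by limma (0.136% and 0.0239%). The oxaliplatin/NaCl count was 1 without any single rat other than rat 43 and 3 without that rat. The NaCl/oxaliplatin count was 2 without rat 73.

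The median change of the 59 members at 1 h was -0.07 in topotecan/D5W, -0.36 in D5W/topotecan, -0.13 in topotecan/oxaliplatin and -0.37 in oxaliplatin/topotecan rats, beside medians of -0.09, -0.04, -0.14 and -0.13 over all probe sets in the same order. After a second quantile normalization, which raised the median of all probe sets by 0.10 to 0.16 in topotecan/D5W, topotecan/oxaliplatin and oxaliplatin/topotecan rats at 1 h, the members called there were 8 higher and 15 lower, 12 higher and 17 lower, and 6 higher and 20 lower. The median of the members in topotecan/D5W rats was then 0.01, so its sign depends on the scaling.

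**Figure D1:**
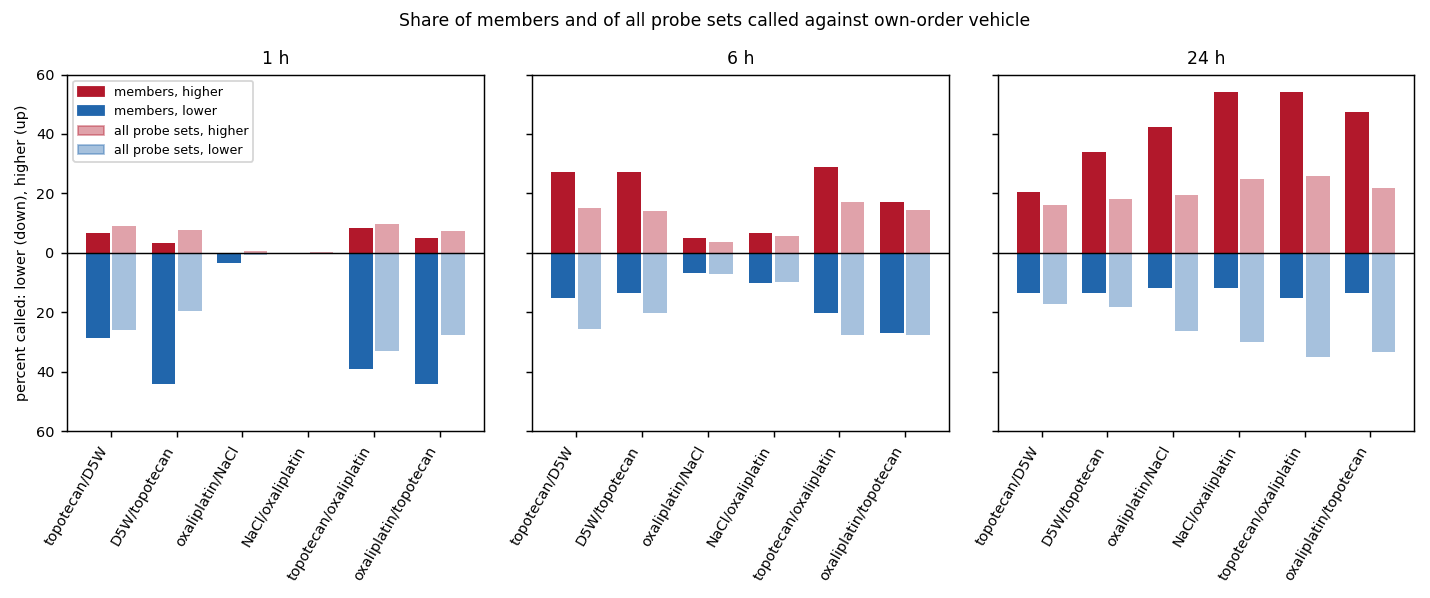
Percent of the 59 members and of all 12532 probe sets called higher (up) or lower (down) than the own-order vehicle, by treatment and hours after the second infusion. At 24 h after NaCl/oxaliplatin and topotecan/oxaliplatin 32 members were called higher, against 0 and 5 at 1 h.

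The RhoGAP genes held 11 or 12 of the members called lower in each topotecan group at 1 h. Of 24 Arhgap members, 11 were lower in topotecan/D5W, 11 in D5W/topotecan, 12 in topotecan/oxaliplatin and 11 in oxaliplatin/topotecan rats at 1 h, with medians of -0.15, -0.44, -0.39 and -0.33, where 26.0%, 19.5%, 32.9% and 27.6% of all probe sets were lower. The single Arhgap member called higher in any treatment at 1 h was Arhgap27 in topotecan/D5W rats (0.45). Arhgap15, 17, 19, 21, 24, 26 and 39 were lower in all 4 topotecan groups, as were 6 members of other classes (13 in all, beside 11.2% of all probe sets).

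Arhgap26 encodes GRAF, a GTPase-activating protein for RhoA and Cdc42 with a membrane-bending BAR domain. Its signal at 1 h was 6.01, 5.49, 5.81 and 5.72 in topotecan/D5W rats, against 8.76, 9.03, 8.58 and 8.45 in NaCl/D5W rats. It fell by 2.95 on the log2 scale (SE 0.13, 7.71-fold lower, adjusted p = 2.2e-20, exact permutation p = 0.0286), and the groups did not overlap. In topotecan/oxaliplatin rats it was 5.77, 5.75, 5.73 and 5.55, which was 8.02-fold lower than in the same vehicle. With topotecan second it fell less: the values were 6.52, 6.61, 7.21 and 6.39 in D5W/topotecan and 6.55, 6.48, 6.39 and 6.68 in oxaliplatin/topotecan rats, against 8.40, 8.60, 8.68 and 8.66 in D5W/NaCl rats. The changes were -1.90 and -2.06, again with no overlap. Oxaliplatin alone gave -0.49 in oxaliplatin/NaCl (adjusted p = 0.217) and -0.25 in NaCl/oxaliplatin rats (adjusted p = 0.375), with values that overlapped those of the vehicles.

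By 6 h Arhgap26 was close to vehicle in the rats given topotecan alone. It averaged 8.68 ± 0.28 in topotecan/D5W rats, against 8.95 ± 0.27 in NaCl/D5W rats (SD, n = 4 each; change -0.26, adjusted p = 0.0925), and 8.80 in both D5W/topotecan and D5W/NaCl rats. Small falls were called in NaCl/oxaliplatin (-0.48), topotecan/oxaliplatin (-0.56) and oxaliplatin/topotecan rats (-0.63) at 6 h and in topotecan/oxaliplatin rats at 24 h (-0.41). Apart from that of topotecan/oxaliplatin at 6 h, each of these lost its call without some single rat (highest adjusted p 0.0313, 0.0297 and 0.0361).

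Arhgap15, whose product restrains Rac in white blood cells of mice, fell as steeply. It was at 7.42, 7.00, 7.32 and 7.06 in topotecan/D5W rats at 1 h, against 10.00, 9.98, 10.07 and 10.06 in NaCl/D5W rats (change -2.83, SE 0.11, adjusted p = 4.3e-22). At 6 h it was still low in oxaliplatin/topotecan rats, at 8.80, 9.25, 8.85 and 8.69 against 9.99, 10.32, 10.57 and 10.45 in D5W/NaCl rats (change -1.44, adjusted p = 3.1e-10), with no overlap at either time. Arhgap24 encodes FilGAP, a Rac regulator that binds filamin. Its values in topotecan/oxaliplatin rats at 1 h were 5.68, 5.60, 5.42 and 5.83, against 7.67, 7.68, 7.06 and 7.55 in NaCl/D5W rats (change -1.86, adjusted p = 8.8e-15). Arhgap24 then went the other way in D5W/topotecan rats at 24 h, with 8.45, 8.24, 8.04 and 8.28 against 7.40, 7.66 and 7.79 in D5W/NaCl rats (change 0.64, adjusted p = 4.3e-04).

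Arhgap6, a regulator of RhoA, was called lower in 2 treatments at 1 h and higher in 2 at 6 h and 2 at 24 h. The fall and the rise given here are from different treatments. It was at 6.17, 5.96, 6.14 and 6.19 in topotecan/D5W rats at 1 h, against 7.47, 7.70, 7.81 and 7.85 in NaCl/D5W rats (change -1.60, adjusted p = 1.2e-07). In topotecan/oxaliplatin rats at 24 h it was at 8.32, 8.61, 9.49 and 9.17, above the 8.02, 8.04, 7.71 and 7.20 of NaCl/D5W rats (change 1.15, adjusted p = 1.4e-05). In all, 18 members were called in both directions over the 18 comparisons (30.5%, beside 17.5% of all probe sets).

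**Figure D2:**
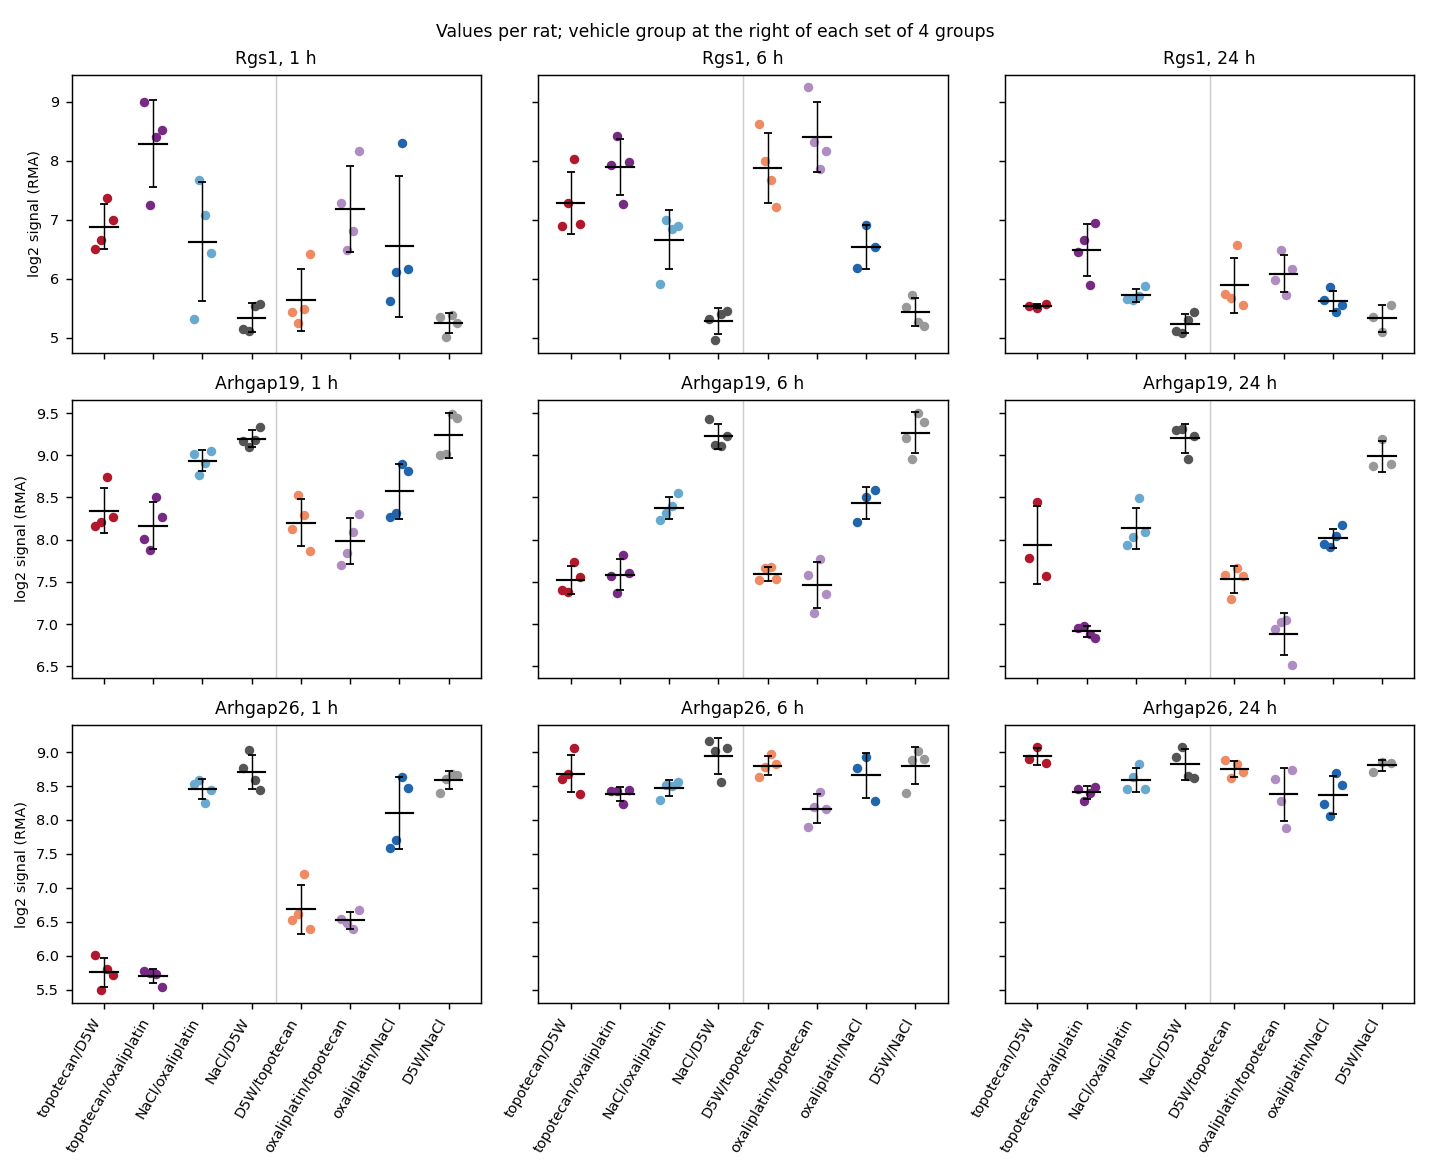
Log2 signal of Rgs1, Arhgap19 and Arhgap26 in every rat at 1, 6 and 24 h (points), with the group mean and SD (bars), each set of treatments standing left of its own-order vehicle. Arhgap26 lay at 5.49 to 6.01 in topotecan/D5W rats at 1 h and at 8.39 to 9.06 at 6 h.

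Arhgap19 encodes a RhoA GTPase-activating protein that acts during division of human T cells, and it was called lower in all 6 treatments at 6 and 24 h. At 1 h it was called lower in topotecan/D5W (-0.85), D5W/topotecan (-1.03), topotecan/oxaliplatin (-1.03) and oxaliplatin/topotecan rats (-1.25), and missed the threshold in oxaliplatin/NaCl (-0.67, adjusted p = 0.0137) and NaCl/oxaliplatin rats (-0.26, adjusted p = 0.408). At 6 h the changes were called in each treatment, with values of -1.81 to -1.64 in the topotecan groups and of -0.83 and -0.85 after oxaliplatin alone. The oxaliplatin/NaCl call at 6 h was lost without rat 39 (adjusted p = 0.0108).

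The deepest Arhgap19 values came at 24 h with both drugs. They were 6.95, 6.98, 6.88 and 6.84 in topotecan/oxaliplatin rats, against 9.30, 9.31, 8.95 and 9.23 in NaCl/D5W rats (change -2.29, SE 0.14, 4.88-fold lower, adjusted p = 1.4e-16). They were 6.94, 7.02, 7.05 and 6.51 in oxaliplatin/topotecan rats, against 8.87, 9.20 and 8.90 in D5W/NaCl rats (change -2.11, 4.31-fold lower, adjusted p = 5.2e-13). Every treated rat was below every vehicle rat at that time, also with a single drug, where the changes were -1.27 in topotecan/D5W, -1.46 in D5W/topotecan, -0.97 in oxaliplatin/NaCl and -1.06 in NaCl/oxaliplatin rats. The mitosis list moved the same way in these groups, and its part in the Arhgap19 result was not tested.

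Arhgap11a, another RhoA regulator of dividing cells, was lower in 13 of 18 comparisons. At 24 h it was at 10.10, 9.66, 9.69 and 9.62 in oxaliplatin/topotecan rats, against 11.67, 11.63 and 11.46 in D5W/NaCl rats (change -1.82, adjusted p = 8.0e-13). Arhgap33, which carries a sorting nexin domain, was not called at 1 h in any treatment and was lower in 10 later comparisons. It was at 7.75, 7.58, 7.82 and 7.69 in topotecan/oxaliplatin rats at 24 h, against 8.59, 8.77, 8.64 and 8.69 in NaCl/D5W rats (change -0.97, adjusted p = 6.0e-11). Neither gene had rats that overlapped between the groups named.

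In every treatment more members were called higher at 6 h than at 1 h. At 6 h, 16 members were higher and 9 lower in topotecan/D5W rats (15.1% and 25.6% of all probe sets), and 16 higher and 8 lower in D5W/topotecan rats (14.1% and 20.4%). After oxaliplatin alone, 3 were higher and 4 lower in oxaliplatin/NaCl rats (3.78% and 7.25% of all probe sets), and 4 higher and 6 lower in NaCl/oxaliplatin rats (5.54% and 9.69%). With both drugs, 17 were higher and 12 lower in topotecan/oxaliplatin rats (17.0% and 27.6% of all probe sets), and 10 higher and 16 lower in oxaliplatin/topotecan rats (14.2% and 27.5%). The topotecan/D5W count of 25 was 15 without rat 4 of NaCl/D5W, and the oxaliplatin/NaCl count of 7 was 3 without rat 39 and 4 without rat 45.

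Medians of the members at 6 h ran from -0.03 in oxaliplatin/topotecan rats to 0.23 in D5W/topotecan rats, beside -0.09 to 0.02 over all probe sets. A second quantile normalization gave 22 higher and 7 lower in topotecan/D5W rats and 5 higher and 4 lower in oxaliplatin/NaCl rats. It gave 12 higher and 12 lower in oxaliplatin/topotecan rats, where the median became 0.07. Of all probe sets 2279 were then higher and 2935 lower, 530 and 1135, and 2328 and 3103 in the same order. Of the 17 members lower in topotecan/D5W rats at 1 h, 4 were still lower and 3 were higher at 6 h. Of the 26 lower in oxaliplatin/topotecan rats at 1 h, 13 were still lower and 3 were higher. Arhgap25 was the single member called higher in all 6 treatments at 6 h, and Arhgap19, Rgs12 and Tbc1d31 were those called lower in all 6. The shares of all probe sets with these patterns across times or treatments at 6 h were not counted.

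At 24 h more members were called higher than lower in every treatment. The counts were 12 higher and 8 lower in topotecan/D5W rats (16.1% and 17.3% of all probe sets), and 20 higher and 8 lower in D5W/topotecan rats (18.1% and 18.3%). After oxaliplatin they were 25 higher and 7 lower in oxaliplatin/NaCl rats (19.6% and 26.4% of all probe sets), and 32 higher and 7 lower in NaCl/oxaliplatin rats (24.9% and 30.2%). With both drugs they were 32 higher and 9 lower in topotecan/oxaliplatin rats (25.9% and 35.2% of all probe sets), and 28 higher and 8 lower in oxaliplatin/topotecan rats (21.8% and 33.3%). The member medians were 0.22 to 0.43, while those of all probe sets were -0.11 to 0.03.

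The members higher in all 6 treatments at 24 h were 10: Arhgap4, 9, 25, 27, 28 and 45, Tbc1d2b, 4, 9b and 10c (9.75% of all probe sets did so). Another 7 were lower in all 6, namely Arhgap11a, 19 and 33, Arhgef37, Rgs12, Tbc1d15 and Tbc1d31, a share close to that of all probe sets (12.2%). Marker lists of other marrow cells moved with the higher members: 7 to 9 of 9 T and NK cell genes, 7 to 10 of 11 monocyte and macrophage genes and 5 to 7 of 7 endothelial genes were called higher in each treatment at 24 h, and 9 of 10 erythroid genes lower. Their part in the members' changes was not tested.

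**Figure D3:**
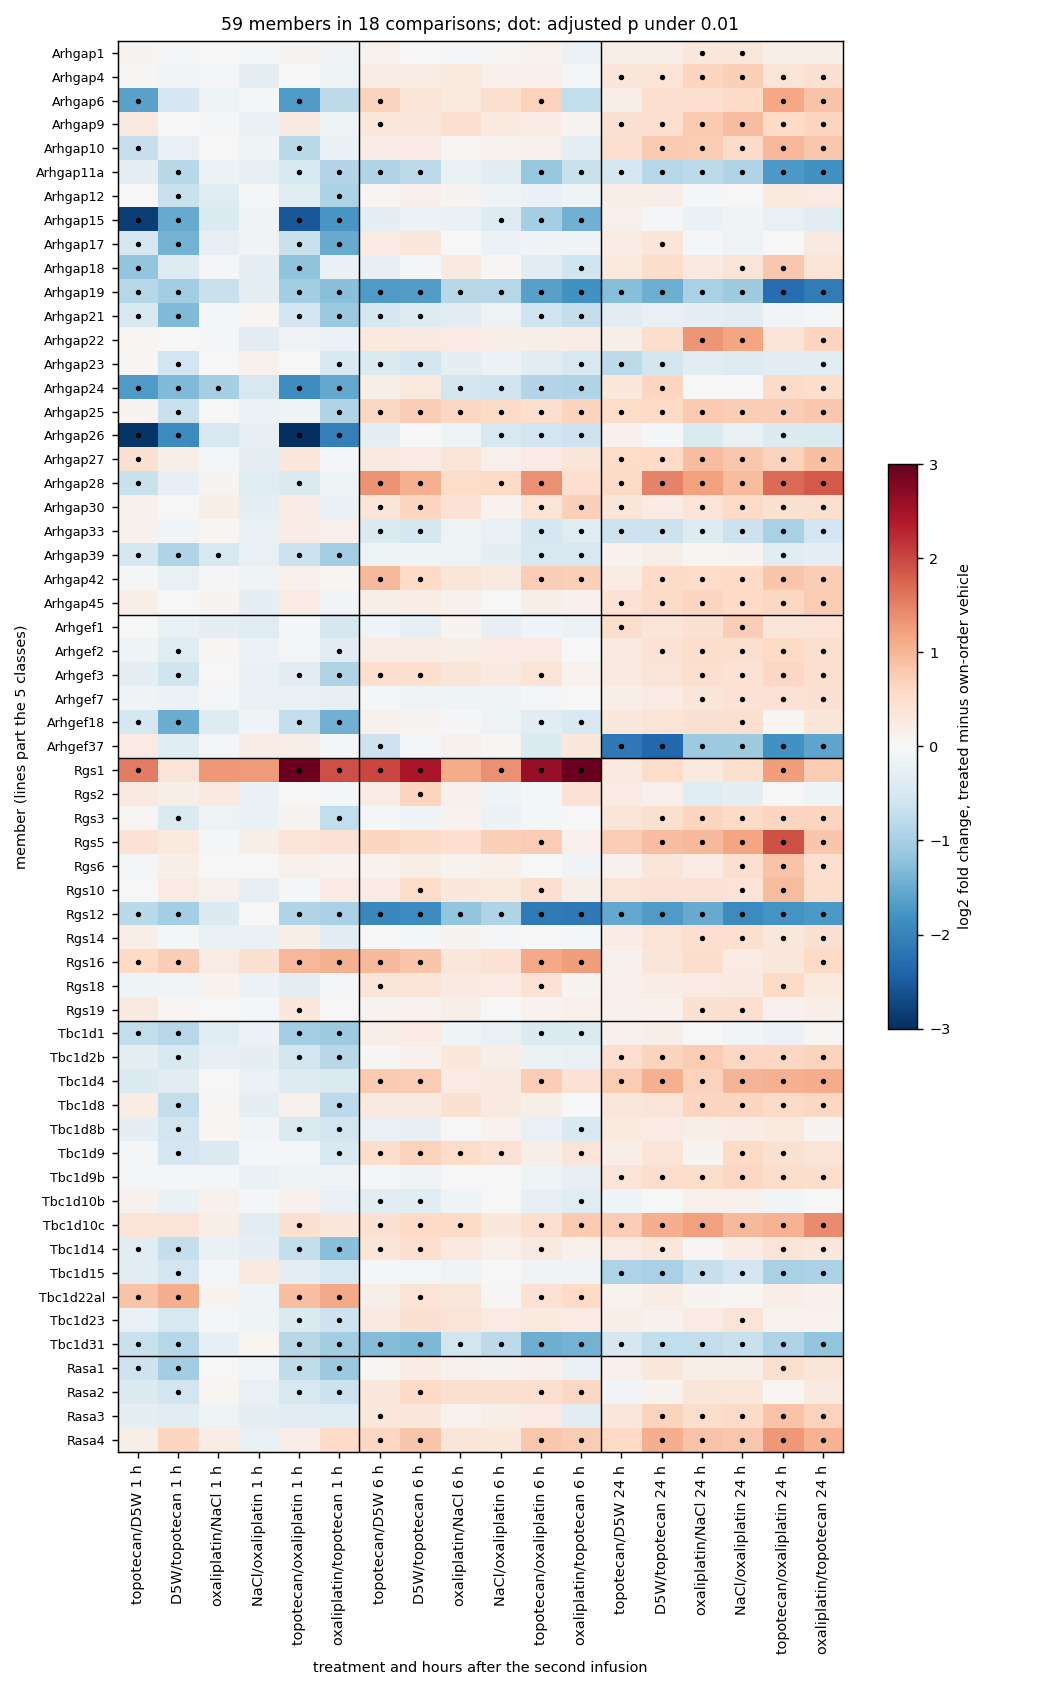
Log2 fold change of each of the 59 members (down the page, in 5 classes) in the 18 comparisons (across, by treatment and time), with a dot where the adjusted p was under 0.01. Arhgap19, Rgs12 and Tbc1d31 are lower in 16 of 18 columns, and the column block at 24 h holds most of the higher calls.

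The RhoGAP genes called higher at 24 h included Arhgap28 and Arhgap25, in 6 treatments each, and Arhgap22, in 3. At 6 h Arhgap28 was called higher in 4 treatments already and Arhgap25 in 6. Arhgap28, a RhoA regulator, was at 8.95, 9.56, 8.93 and 9.11 in oxaliplatin/topotecan rats at 24 h, against 7.37, 7.25 and 7.25 in D5W/NaCl rats (change 1.85, SE 0.21, 3.6-fold, adjusted p = 1.1e-09). All 3 of its probe sets were called higher there (1.85, 1.11 and 0.99), whereas its falls in topotecan/D5W (-0.67) and topotecan/oxaliplatin rats (-0.43) at 1 h were called in the probe set of highest mean and not in the other 2. Arhgap25, a Rac regulator of white blood cells, was at 10.31, 10.23, 10.34 and 10.30 in topotecan/oxaliplatin rats at 24 h, against 9.44, 9.66, 9.50 and 9.58 in NaCl/D5W rats (change 0.75, adjusted p = 3.1e-09).

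Arhgap22, also a Rac regulator, was at 7.32, 7.68, 7.24 and 7.58 in oxaliplatin/NaCl rats at 24 h, against 6.50, 5.92 and 5.95 in D5W/NaCl rats (change 1.33, adjusted p = 4.9e-07). It was at 7.48, 7.74, 7.77 and 7.35 in NaCl/oxaliplatin rats, against 6.39, 6.49, 6.24 and 6.46 in NaCl/D5W rats (change 1.19, adjusted p = 2.1e-08). With topotecan added the level was lower: the difference of topotecan/oxaliplatin minus NaCl/oxaliplatin rats was -0.81 (adjusted p = 1.2e-04) and that of oxaliplatin/topotecan minus oxaliplatin/NaCl rats -0.70 (adjusted p = 0.0076). These combination rats came wholly or mostly from other code columns than the oxaliplatin rats. Arhgap23 went down instead, to 9.19, 8.82 and 8.49 in topotecan/D5W rats at 24 h, against 9.66, 9.67, 9.44 and 9.70 in NaCl/D5W rats (change -0.78, adjusted p = 2.4e-05).

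The exchange factors were few, and none of the 6 Arhgef members was called higher at 1 h, where 0.136% to 9.77% of all probe sets were. Arhgef18, which activates RhoA at cell junctions, was at 8.70, 8.54, 8.70 and 8.34 in D5W/topotecan rats at 1 h, against 10.09, 10.08, 10.07 and 9.96 in D5W/NaCl rats (change -1.48, adjusted p = 8.3e-11). Arhgef3, an exchange factor for RhoA and RhoB, was at 8.27, 8.14, 8.19 and 8.69 in oxaliplatin/topotecan rats, against 9.05, 9.11, 9.38 and 9.41 in D5W/NaCl rats (change -0.91, adjusted p = 3.4e-08). Neither overlapped its vehicle.

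At 24 h the exchange factors split. From 1 to 5 of the 6 were called higher in each treatment, and Arhgef37 alone was lower, in all 6. Of all probe sets 16.1% to 25.9% were higher and 17.3% to 35.2% lower. Arhgef1, which links the G protein alpha subunits of the G12 and G13 kind to RhoA in white blood cells, was at 10.66, 10.77, 10.48 and 10.71 in NaCl/oxaliplatin rats, against 9.95, 10.30, 9.70 and 9.71 in NaCl/D5W rats (change 0.74, adjusted p = 2.7e-05). Arhgef37 was at 6.83, 6.65, 5.49 and 6.16 in D5W/topotecan rats, against 8.48, 8.85 and 8.61 in D5W/NaCl rats (change -2.37, SE 0.22, 5.15-fold lower, adjusted p = 3.3e-11). It fell by 1.09 in oxaliplatin/NaCl rats at the same time, to 7.50, 7.68, 7.41 and 7.62, and oxaliplatin/topotecan rats were 0.78 above D5W/topotecan rats (adjusted p = 0.0034).

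The medians of the 11 RGS members at 1 h were 0.20, 0.17, 0.16 and 0.00 in topotecan/D5W, D5W/topotecan, topotecan/oxaliplatin and oxaliplatin/topotecan rats. In the same order 2, 1, 3 and 2 members were called higher and 1, 2, 1 and 2 lower. Of all probe sets 9.18%, 7.67%, 9.77% and 7.21% were higher and 26.0%, 19.5%, 32.9% and 27.6% lower. The medians of the other 4 classes were below 0 in these groups. That of the Arhgef class, however, was above 0 in topotecan/D5W and topotecan/oxaliplatin rats after a second quantile normalization. In NaCl/oxaliplatin rats the RGS median was -0.04. At 24 h the RGS medians were 0.22 to 0.60, and 0 to 7 members were higher, the most in topotecan/oxaliplatin rats. Of all probe sets 16.1% to 25.9% were higher at that time, the most again in topotecan/oxaliplatin rats.

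Rgs1, which quenches chemokine receptor signals in B and T cells, gave the steepest early rise among the members. Its probe set was dim, at percentile 4.64 of mean signal, and was not tested when the dimmest probe sets were left out. At 1 h Rgs1 was at 8.99, 7.25, 8.40 and 8.53 in topotecan/oxaliplatin rats, against 5.15, 5.12, 5.54 and 5.58 in NaCl/D5W rats (change 2.94, SE 0.33, 7.7-fold, adjusted p = 1.3e-09). In topotecan/D5W rats it was at 6.51, 6.66, 7.37 and 7.00 (change 1.54, adjusted p = 2.1e-04), also above every NaCl/D5W rat. With topotecan second, its values were 7.29, 6.49, 6.81 and 8.17 in oxaliplatin/topotecan rats, against 5.36, 5.02, 5.38 and 5.25 in D5W/NaCl rats (change 1.94, adjusted p = 4.3e-05).

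Rgs1 did not pass the test in the other 3 groups at 1 h. D5W/topotecan rats had 5.43, 5.25, 5.49 and 6.42 (change 0.39, adjusted p = 0.436) and overlapped D5W/NaCl rats. Oxaliplatin/NaCl rats had 5.62, 6.13, 8.29 and 6.16 (change 1.30, adjusted p = 0.0491), and NaCl/oxaliplatin rats had 5.32, 7.68, 7.08 and 6.43 (change 1.28, adjusted p = 0.0495). The spread among the rats of these oxaliplatin groups (SD 1.19 and 1.01) was wider than among vehicle rats (0.17 and 0.25).

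At 6 h Rgs1 was called higher in 5 of 6 treatments. It was at 9.25, 8.32, 7.87 and 8.16 in oxaliplatin/topotecan rats, against 5.53, 5.72, 5.28 and 5.21 in D5W/NaCl rats (change 2.97, SE 0.37, 7.81-fold, adjusted p = 2.1e-08). The changes were 2.00 in topotecan/D5W, 2.45 in D5W/topotecan, 2.61 in topotecan/oxaliplatin and 1.37 in NaCl/oxaliplatin rats (adjusted p = 0.0020, and 0.0108 without rat 76), while oxaliplatin/NaCl rats missed the threshold (1.11, adjusted p = 0.0441). At 24 h it was called in topotecan/oxaliplatin rats alone, at 6.45, 6.66, 5.89 and 6.95 against 5.13, 5.09, 5.31 and 5.44 in NaCl/D5W rats (change 1.25, adjusted p = 0.0011). Within the first animal set the Rgs1 call was lost in topotecan/D5W rats at 1 h (1.45, adjusted p = 0.068) and 6 h (1.91, adjusted p = 0.019), in NaCl/oxaliplatin rats at 6 h (1.27, adjusted p = 0.144) and in topotecan/oxaliplatin rats at 24 h (1.18, adjusted p = 0.10). The NaCl/oxaliplatin call at 6 h was lost within the second set as well (1.48, adjusted p = 0.0144).

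Rgs16, which acts on the Gi and Gq classes of alpha subunits, was higher in all 4 topotecan groups at 1 h (0.60 to 1.07) and again at 6 h. In oxaliplatin/topotecan rats at 6 h it was at 8.51, 7.85, 7.99 and 8.87, against 7.13, 7.06, 7.02 and 6.95 in D5W/NaCl rats (change 1.26, adjusted p = 7.1e-07). After oxaliplatin/NaCl it was at 7.25, 7.29 and 7.59 (change 0.33, adjusted p = 0.247). Rgs2, a regulator of Gq, was called once, in D5W/topotecan rats at 6 h, at 11.08, 11.46, 11.61 and 11.34 against 10.44, 10.93, 10.87 and 10.66 in D5W/NaCl rats (change 0.64, adjusted p = 0.0010).

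Rgs12, a large RGS protein that also binds Ras, was lower in 16 of 18 comparisons, the most of its class. At 6 h it was at 7.97, 7.38, 7.58 and 7.54 in oxaliplatin/topotecan rats, against 9.98, 9.82, 9.44 and 9.83 in D5W/NaCl rats (change -2.15, SE 0.14, 4.45-fold lower, adjusted p = 2.0e-15). Oxaliplatin/NaCl rats had 8.34, 8.66 and 8.78 (change -1.18, adjusted p = 1.9e-07), and no treated rat reached a vehicle rat. At 24 h it changed by -1.90 to -1.50 in the 6 treatments, all called. Its 1 h changes after oxaliplatin alone were -0.40 in oxaliplatin/NaCl and -0.01 in NaCl/oxaliplatin rats, neither called.

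Rgs5, a marker of pericytes around vessels, rose late. It was at 9.61, 10.46, 10.47 and 10.90 in topotecan/oxaliplatin rats at 24 h, against 8.41, 8.70, 8.37 and 8.36 in NaCl/D5W rats (change 1.90, SE 0.24, 3.74-fold, adjusted p = 5.9e-09). The other 5 treatments had changes of 0.75 to 1.17 at 24 h, called in all but topotecan/D5W rats. In topotecan/oxaliplatin rats 6 of 7 endothelial and 7 of 9 stroma and bone markers were higher too, and their part in the Rgs5 result was not tested. Rgs3 was at 10.16, 10.19, 9.30 and 10.13 in oxaliplatin/topotecan rats at 1 h, against 10.63, 10.67, 10.71 and 10.74 in D5W/NaCl rats (change -0.74, adjusted p = 1.1e-05).

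Of the 14 Tbc1d members, 3, 8, 6 and 8 were lower in topotecan/D5W, D5W/topotecan, topotecan/oxaliplatin and oxaliplatin/topotecan rats at 1 h, and 1, 1, 2 and 1 higher. Of all probe sets 26.0%, 19.5%, 32.9% and 27.6% were lower, so the share of the class in topotecan/D5W rats was below that of all probe sets. Tbc1d14, which works in recycling endosomes and autophagy, was at 8.08, 8.02, 8.42 and 8.45 in oxaliplatin/topotecan rats, against 9.24, 9.48, 9.70 and 9.56 in D5W/NaCl rats (change -1.25, adjusted p = 7.9e-14). Tbc1d22al ran against its class. It was at 10.39, 10.38, 10.50 and 10.36 in oxaliplatin/topotecan rats, against 9.21, 9.33, 9.31 and 9.24 in D5W/NaCl rats (change 1.14, adjusted p = 5.1e-11), and it was higher in all 4 topotecan groups at 1 h.

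Tbc1d31, a protein of the centriolar satellites, was lower at all times in the topotecan groups. At 6 h it was at 6.50, 6.39, 6.46 and 6.61 in topotecan/oxaliplatin rats, against 7.84, 8.04, 7.93 and 8.03 in NaCl/D5W rats (change -1.47, SE 0.10, adjusted p = 5.9e-15). Tbc1d15, a Rab7 regulator, was at 9.55, 9.30, 9.85 and 10.00 in D5W/topotecan rats at 24 h, against 10.35, 10.65 and 10.91 in D5W/NaCl rats (change -0.96, adjusted p = 1.8e-05). Neither set of rats overlapped its vehicle.

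Tbc1d10c and Tbc1d4 were called higher in all 6 treatments at 24 h, as Tbc1d2b and Tbc1d9b were. At 6 h Tbc1d10c was called higher in 5 treatments and Tbc1d4 in 3. Tbc1d10c, a Rab and Ras regulator of lymphocytes also known as carabin, was at 10.50, 10.45, 10.00 and 10.46 in oxaliplatin/topotecan rats at 24 h, against 9.11, 9.12 and 8.60 in D5W/NaCl rats (change 1.41, SE 0.15, 2.67-fold, adjusted p = 4.3e-10). It was higher in 12 of 18 comparisons, as Arhgap25 was. The T and NK cell list had 7 of 9 genes higher in these rats, and its part was not tested. Tbc1d4, which holds back glucose transporter traffic in muscle and fat, was at 8.00, 7.62, 7.55 and 7.91 in NaCl/oxaliplatin rats at 24 h, against 6.80, 6.88, 6.55 and 6.76 in NaCl/D5W rats (change 1.02, adjusted p = 4.0e-08).

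The 4 Ras GTPase-activating proteins parted by time. Rasa1, p120 RasGAP, was at 7.26, 7.73, 8.19 and 8.46 in oxaliplatin/topotecan rats at 1 h, against 8.79, 8.93, 9.18 and 9.14 in D5W/NaCl rats (change -1.10, adjusted p = 1.1e-07), and its second probe set fell by 1.23. Rasa2 was at 6.51, 6.80, 6.62 and 6.79 in the same rats, against 7.41, 7.20, 7.27 and 7.43 in D5W/NaCl rats (change -0.65, adjusted p = 0.0015, and 0.025 after a second quantile normalization). At 6 h Rasa2 was higher, at 7.96, 8.20, 8.13 and 7.96 in oxaliplatin/topotecan rats against 7.12, 7.17, 7.59 and 7.93 in D5W/NaCl rats (change 0.61, adjusted p = 0.0021).

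Rasa3 and Rasa4 were not called at 1 h in any treatment and rose by 24 h. Rasa4, a RasGAP that responds to calcium, was at 9.86, 9.70, 10.11 and 9.64 in topotecan/oxaliplatin rats at 24 h, against 8.66, 8.49, 8.48 and 8.51 in NaCl/D5W rats (change 1.29, adjusted p = 2.4e-07). Rasa3, which acts on Ras and Rap in platelets, was at 12.03, 12.10, 12.35 and 12.48 in the same topotecan/oxaliplatin rats, against 11.35, 11.43, 11.36 and 11.35 in NaCl/D5W rats (change 0.87, adjusted p = 1.2e-08). Rasa3 was called higher in 5 of 6 treatments at 24 h. All 6 megakaryocyte markers measured were called higher in topotecan/oxaliplatin rats at 24 h, but only 0 to 3 of them in the other treatments. Their part in the Rasa3 result was not tested.

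The change at 1 h went with the length of the gene, which the choice of members did not use. Across 57 members with a length in RefSeq (GRCr8), the Spearman correlation of log10 length with the change at 1 h was -0.71 in topotecan/D5W, -0.58 in D5W/topotecan, -0.66 in topotecan/oxaliplatin and -0.53 in oxaliplatin/topotecan rats. It was -0.46 in oxaliplatin/NaCl and 0.03 in NaCl/oxaliplatin rats. Over all 9979 probe sets with a length the values were -0.42, -0.63, -0.47, -0.61, -0.36 and -0.24 in the same order. These are descriptions across genes, which are not independent, and treatments with the same order share vehicle rats.

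Of the 23 members over 100 kb, 10, 13, 12 and 13 were lower in topotecan/D5W, D5W/topotecan, topotecan/oxaliplatin and oxaliplatin/topotecan rats at 1 h, and 0 were higher in each. Of all probe sets of such genes 57.2%, 53.9%, 65.5% and 61.5% were lower. Of the 23 members up to 50 kb, 1, 2, 2 and 2 were lower and 4, 2, 5 and 3 higher, where 19.4%, 6.61%, 24.6% and 14.1% of all such probe sets were lower. The shares of all long or short probe sets that were higher were not counted, so the higher calls have no background to be set against. Arhgap26 (786446 bp), Arhgap15 (619269 bp) and Arhgap6 (536433 bp) are among the longest, while Rgs1 spans 4344 bp and Tbc1d22al 630 bp. Several members were exceptions. Among them, Rgs6, at 651590 bp, had changes of -0.04 to 0.17 at 1 h, and Rasa3, at 113972 bp, was not called then. Arhgap19 fell although it spans 47003 bp, and Arhgap11a (26799 bp) was lower in 3 topotecan groups at 1 h. At 6 and 24 h the correlation over members was between -0.33 and 0.09.

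**Figure D4:**
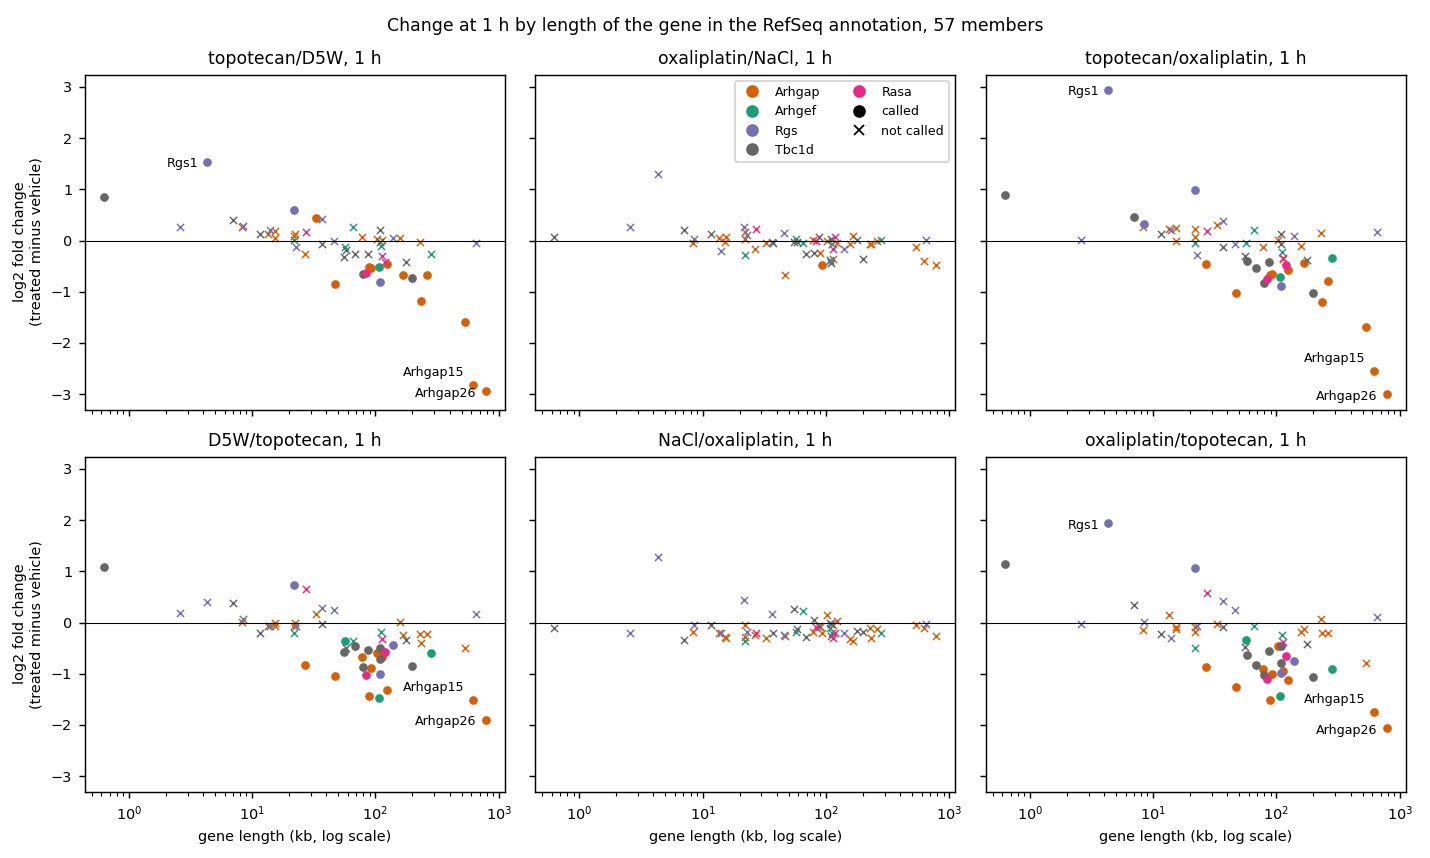
Change at 1 h (log2, treated minus own-order vehicle) of 57 members against the length of the gene (kb, log axis), 1 panel per treatment, coloured by class, with crosses for members not called. Arhgap26, at 786446 bp, is the lowest point of the topotecan panels (-2.95 in topotecan/D5W, -1.90 in D5W/topotecan and -2.06 in oxaliplatin/topotecan rats).

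The orders of infusion differed at 1 h for topotecan and for the combination, tested as the difference between the changes of the 2 orders, each against its own vehicle. For topotecan alone 9 members differed, where 12.2% of all probe sets did: 6 were higher and 3 lower with topotecan first. For the combination 10 differed (9.85% of all probe sets), 7 higher and 3 lower with topotecan first. For oxaliplatin alone 0 members were called (0% of all probe sets; 8 members had an unadjusted p under 0.05). Rats given topotecan first had also been exposed to it for longer when marrow was taken, and order and that time cannot be told apart. D5W/topotecan rats came from other code columns than topotecan/D5W rats, whereas the combinations came from the same columns.

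Arhgap15, Arhgap18 and Arhgap26 were lower with topotecan first in both contrasts. Arhgap15 was at 7.42, 7.00, 7.32 and 7.06 in topotecan/D5W rats at 1 h, against 8.40, 8.53, 8.74 and 8.38 in D5W/topotecan rats (order difference -1.31, SE 0.19, adjusted p = 2.4e-07). In the combinations the order difference of Arhgap15 was -0.79 (adjusted p = 0.0013). For Arhgap26 it was -1.04 with topotecan alone and -0.94 in the combinations. Arhgap18, a RhoA regulator, was at 8.62, 8.96, 8.77 and 9.07 in topotecan/oxaliplatin rats and at 9.44, 9.35, 9.63 and 10.02 in oxaliplatin/topotecan rats (order difference -1.01, adjusted p = 2.7e-04, and -0.79 with topotecan alone). No rat of 1 order overlapped the other in these 2 comparisons.

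Arhgap17, Arhgap25, Arhgef18 and Tbc1d8 were lower with topotecan second in both contrasts. Tbc1d8 was at 9.72, 9.79, 9.73 and 9.51 in topotecan/D5W rats and at 8.88, 8.79, 8.73 and 8.70 in D5W/topotecan rats, with vehicles between 9.33 and 9.63 (order difference 0.92, adjusted p = 2.9e-04). Tbc1d8 repeated this in the combinations, at 9.58, 9.69, 9.58 and 9.55 with topotecan first and at 8.81, 8.85, 8.50 and 8.64 with topotecan second (0.91). Arhgap17, a Cdc42 and Rac regulator, was at 10.17, 10.37, 10.09 and 10.24 in topotecan/oxaliplatin rats and at 9.50, 9.60, 9.52 and 9.53 in oxaliplatin/topotecan rats (0.84, adjusted p = 1.0e-05). Order differences with topotecan alone and in the combination were 0.75 and 0.78 for Arhgap25 and 0.95 and 0.73 for Arhgef18. The B cell list had 3 of 5 genes lower at 1 h in D5W/topotecan and in oxaliplatin/topotecan rats (medians -0.83 and -1.09). In topotecan/D5W and topotecan/oxaliplatin rats 1 of 5 was lower in each (medians 0.15 and 0.12). The part of this list in the order differences was not tested.

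Further members were called in 1 contrast. With topotecan alone these were Arhgap21 (0.86) and Arhgap23 (0.62), and in the combinations Arhgef3 (0.56), Rgs3 (0.83) and Tbc1d14 (0.54). A call in 1 contrast and not in the other is no test of a difference between them. The order contrasts called 0 members at 6 h for topotecan alone, oxaliplatin alone and the combination (0%, 0% and 0.00798% of all probe sets), and 0 at 24 h (0%, 0% and 0%). Unadjusted p values under 0.05 were then seen for 3, 2 and 10 members at 6 h and for 1, 2 and 2 at 24 h. Between the vehicle groups themselves limma called 0 members at any time (1, 1 and 0 at an unadjusted p under 0.05).

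**Figure D5:**
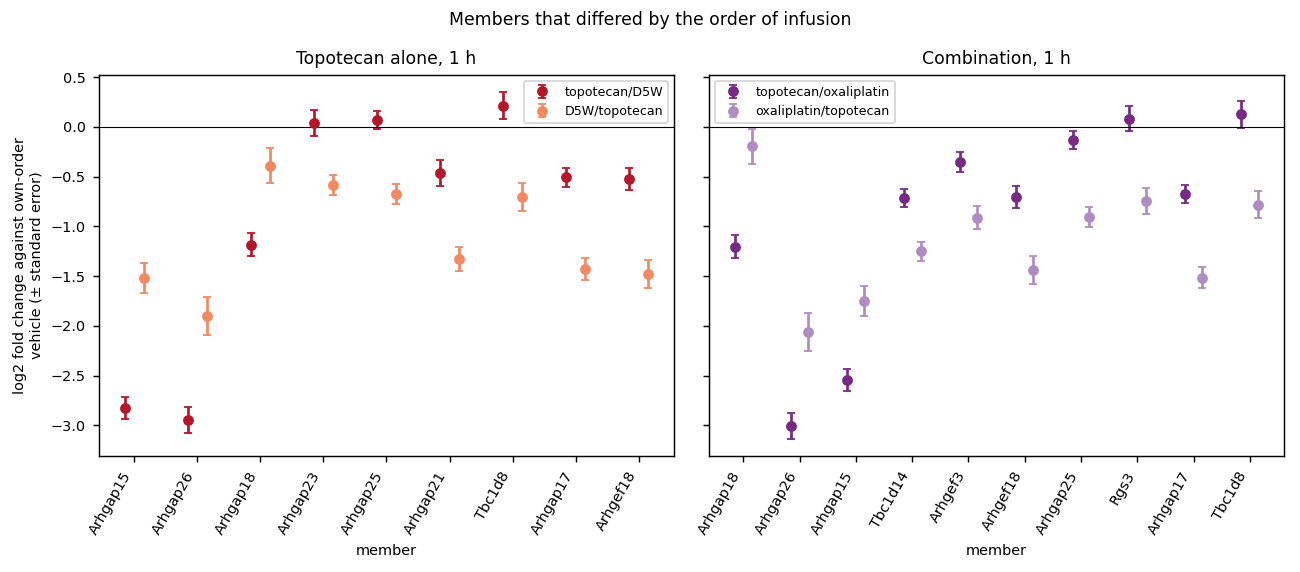
Log2 fold change (± standard error) against own-order vehicle of the members that differed by order at 1 h, with topotecan alone (left, 9 members) and in the combination (right, 10 members). For Arhgap15 with topotecan alone the changes are -2.83 with topotecan first and -1.52 with topotecan second.

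At 1 h adding oxaliplatin to topotecan changed few members. Between topotecan/oxaliplatin and topotecan/D5W rats 0 were called by limma (0% of all probe sets; 9 members at an unadjusted p under 0.05), and between oxaliplatin/topotecan and D5W/topotecan rats 1 was, Tbc1d14 at -0.54 (0.239%). Adding topotecan to oxaliplatin moved many: 12 higher and 18 lower in topotecan/oxaliplatin against NaCl/oxaliplatin rats (39.0% of all probe sets called), and 2 higher and 26 lower in oxaliplatin/topotecan against oxaliplatin/NaCl rats (26.3%). At 1 and 6 h topotecan/oxaliplatin rats came from other code columns than topotecan/D5W rats, and oxaliplatin/topotecan rats from others than oxaliplatin/NaCl rats. In these contrasts the code column and the added drug cannot be told apart. The other contrasts of a combination with a single drug at 1 and 6 h compared rats of the same columns.

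At 6 h the combinations lay below topotecan alone in several members, although topotecan/oxaliplatin and topotecan/D5W rats differed in code column as well. Against topotecan/D5W, topotecan/oxaliplatin rats had 0 members higher and 4 lower (1.32% of all probe sets called): Arhgap24 (-1.05), Arhgap15 (-0.75), Tbc1d1 (-0.61) and Arhgef18 (-0.47). Arhgap24 was at 7.14, 6.90, 6.99 and 6.99 in topotecan/oxaliplatin rats and at 7.92, 8.13, 8.20 and 7.97 in topotecan/D5W rats, with no overlap. Against D5W/topotecan, oxaliplatin/topotecan rats had 0 higher and 7 lower (4.09%), among them Arhgap15 (-1.27) and Arhgap24 (-1.19). Against the oxaliplatin groups the counts at 6 h were 5 higher and 7 lower in topotecan/oxaliplatin over NaCl/oxaliplatin rats (17.0%), and 2 higher and 7 lower in oxaliplatin/topotecan over oxaliplatin/NaCl rats (13.4%).

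At 24 h topotecan/oxaliplatin rats had 12 members higher and 6 lower than topotecan/D5W rats (29.6% of all probe sets called) and 4 higher and 7 lower than NaCl/oxaliplatin rats (15.9%). Oxaliplatin/topotecan rats had 1 higher and 4 lower than oxaliplatin/NaCl rats (5.93%) and 1 higher and 4 lower than D5W/topotecan rats (16.8%). Arhgap11a and Arhgap19 were lower in all 4 of these contrasts, with differences of -1.18 to -0.81 and of -1.22 to -0.65. The largest differences the other way, of topotecan/oxaliplatin minus topotecan/D5W rats, were those of Rgs5 (1.15) and Arhgap28 (1.14). At 24 h oxaliplatin/topotecan and oxaliplatin/NaCl rats again shared no code column, and topotecan/oxaliplatin and NaCl/oxaliplatin rats shared columns only in part.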

How the data were processed

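The deposited values were log2 signals of Affymetrix Rat Genome arrays, which the authors made by RMA, which subtracts background, sets quantiles equal and summarises probes by median polish, over all arrays after leaving out 1 outlying array, and then reduced with a filter on probe sets. RMA sets the arrays to 1 common distribution, so a shift of most genes in 1 direction is partly removed. The 28 control probe sets were left out, and 12532 were tested. Of these, 10002 had 1 gene symbol in GEO's platform annotation, 292 several and 2238 none. Array medians lay between 8.79 and 9.30, correlations between arrays between 0.831 and 0.995, and 0 pairs were identical. The number of arrays limits the precision.

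Groups came from the sample labels, and each rat gave 1 array. With limma 3.58.1 in R 4.3.3, the groups of each infusion order that share a vehicle were fitted together over the 3 times, as in the study's methods, without their fold threshold, and orders were compared in 1 fit of all 8 groups. Benjamini-Hochberg adjustment ran over all probe sets of a comparison. The members, lists and tests were chosen with earlier results of these data known.

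Named were Rgs1, Arhgap19 and Arhgap26, the 4 members of each class with the largest called change without overlap, members called the same way in 10 or more of 18 comparisons, members called in order contrasts, those behind a count of 5 or fewer, and those whose probe sets disagreed. Gene starts, lengths and promoters came from RefSeq (GRCr8). The alternatives were a second quantile normalization, all groups or only the compared groups in the fit, pooled vehicles, trended and robust eBayes, a fold above 2, the animal set (first or last animal numbers of a group) as a block, dim probe sets or muscle-rich arrays left out, second probe sets, and each rat left out. The fits were tested on simulated data.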

Additional observations from a re-analysis of the deposited data

Results flagged for a closer look

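Of 112 groups of 4 rats examined for the members described by rat, 9 held a rat apart from the other 3, and chance alone gives about 1 in 20 such groups. The treated ones were Rgs1 at 5.92 in rat 75 of NaCl/oxaliplatin at 6 h, Arhgap26 at 8.23 in rat 57 of topotecan/oxaliplatin at 6 h, Tbc1d10c at 10.00 in rat 71 and Arhgap11a at 10.10 in rat 65 of oxaliplatin/topotecan at 24 h, and Tbc1d22al at 10.50 and Rgs3 at 9.30 in rat 67 of oxaliplatin/topotecan at 1 h. The vehicle ones were Rgs5 at 8.70 in rat 12, Rasa4 at 8.66 in rat 11 and Arhgap23 at 9.44 in rat 5 of NaCl/D5W at 24 h.

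The change at 1 h differed between the orders of infusion, in a test of the difference itself (limma, adjusted p under 0.01). With topotecan alone, first minus second, the differences were -1.31 for Arhgap15, -1.04 for Arhgap26, -0.79 for Arhgap18, 0.92 for Arhgap17, 0.86 for Arhgap21, 0.62 for Arhgap23, 0.75 for Arhgap25, 0.95 for Arhgef18 and 0.92 for Tbc1d8. In the combination, topotecan first minus oxaliplatin first, they were -0.79 for Arhgap15, -1.01 for Arhgap18, -0.94 for Arhgap26, 0.84 for Arhgap17, 0.78 for Arhgap25, 0.56 for Arhgef3, 0.73 for Arhgef18, 0.83 for Rgs3, 0.91 for Tbc1d8 and 0.54 for Tbc1d14.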

How the results depend on the processing

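No paired analysis was possible because each rat gave 1 array. No value of the 60 named reversed under any alternative, but several alternatives could not reverse one. A fold above 2, all or only the compared groups in the fit, and trended and robust eBayes leave the change itself as it was. Rgs1, Arhgap19 and Arhgap26 have 1 probe set each, so second probe sets did not test them. Without the dimmest probe sets 47 of the values were tested. A fold above 2 cut the counts of members called in topotecan/D5W, D5W/topotecan, oxaliplatin/NaCl, topotecan/oxaliplatin and oxaliplatin/topotecan rats to 6, 10, 1, 8 and 15 at 1 h. At 6 and 24 h it left 5 and 3 in topotecan/D5W, 5 and 7 in D5W/topotecan, 1 and 5 in oxaliplatin/NaCl, 1 and 6 in NaCl/oxaliplatin, 8 and 11 in topotecan/oxaliplatin and 6 and 9 in oxaliplatin/topotecan rats. With only the groups compared in the fit, fewer arrays gave the spread, and counts were 0 for oxaliplatin/NaCl at 1 h, 13 for topotecan/D5W and 4 for oxaliplatin/NaCl at 6 h, and 12 for topotecan/D5W and 13 for D5W/topotecan at 24 h. Pooled vehicles gave 5 for oxaliplatin/NaCl at 1 h and 16 at 6 h. Without the dimmest probe sets (0.25 of all, by mean signal), fewer members were tested, and counts were 1 and 4 for oxaliplatin/NaCl at 1 and 6 h and 6 for NaCl/oxaliplatin at 6 h. The oxaliplatin/NaCl count at 1 h was 1 with trended and robust eBayes and 1 without muscle-rich arrays, and the cause of these moves was not tested. Leaving out 1 rat gave 1 to 3 for oxaliplatin/NaCl and 0 to 2 for NaCl/oxaliplatin at 1 h, and 15 to 22 for topotecan/D5W and 3 to 6 for oxaliplatin/NaCl at 6 h. No count of the order contrasts moved by over 1.5 times. Of the 60 named values, 8 lost the call within the first animal set and 9 within the second, where groups hold fewer rats, and 0 with animal set as a block.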

Other observations

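Other genes of these pathways were counted from lists by name. Of 13 Ras proteins and other Ras regulators, 4, 5, 5 and 7 were lower and 1, 0, 2 and 1 higher at 1 h in topotecan/D5W, D5W/topotecan, topotecan/oxaliplatin and oxaliplatin/topotecan rats, where 26.0%, 19.5%, 32.9% and 27.6% of all probe sets were lower. The shares in topotecan/D5W and topotecan/oxaliplatin rats were close to these. Rapgef2, an exchange factor for Rap, changed by -1.33, -1.73, -1.62 and -2.09 in these groups.

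Of 32 Rab GTPases at 24 h, 7 were higher and 1 lower in topotecan/D5W, 6 and 0 in D5W/topotecan, 8 and 2 in oxaliplatin/NaCl, 12 and 1 in NaCl/oxaliplatin, 13 and 0 in topotecan/oxaliplatin and 7 and 3 in oxaliplatin/topotecan rats. Of all probe sets 16.1% to 25.9% were higher and 17.3% to 35.2% lower in these comparisons. Rab34 changed by 1.91 in topotecan/oxaliplatin rats. Of 14 measured G protein subunits, 3 to 6 were higher and 0 lower in each treatment at that time, beside the same shares of all probe sets. Ect2 and Racgap1, partners that set up RhoA activity at the division plane, changed by -2.98 and -2.36 in topotecan/oxaliplatin rats and by -2.73 and -2.50 in oxaliplatin/topotecan rats. Both genes belong to the mitosis list, of which all 15 measured genes were lower in these rats, so the list is no separate observation.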
